A study of Mus musculus with 6 samples.

Results

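The receptors for polarising and inflammatory cytokines described here are 10 genes: Il12rb1, Il12rb2, Il18r1, Il18rap, Ifngr1, Ifngr2, Il27ra, Il6ra, Il6st and Il10ra. They were chosen by name, with earlier results of these data known. They were read from every probe set whose only gene symbol in the platform annotation is one of them. This gave 18 of 45101 probe sets for 10 of 18194 genes named there. RNA came from CD4+YFP+ T cells sorted from mouse lymph nodes and was measured on 6 expression arrays. The 3 KO arrays (A, B and C) hold cells of FoxP3-GFP-hCre x ROSA26R-YFP mice with Dicer lox/lox, and the 3 Het arrays (A, B and C) hold cells of mice with the same Cre and reporter and Dicer wt/lox. Cre is made under the control of Foxp3 in both groups, so both carry a Dicer allele open to deletion, and cells that never expressed Foxp3 keep Dicer. YFP marks cells in which Cre has acted on the reporter, which does not by itself show that Dicer was deleted in them. Age and sex are not given in the sources used here, nor whether animals were pooled. Nothing in the labels says that arrays of 1 group come from different animals. Every p-value below therefore measures spread among these arrays alone, and that spread may be technical.

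These receptors let a T cell read the cytokines that steer helper cells into lineages. IL-12 binds Il12rb1 with Il12rb2 and signals through STAT4, IL-18 binds Il18r1 with Il18rap and signals through MyD88, and interferon gamma binds Ifngr1 with Ifngr2. IL-27 uses Il27ra with Il6st (gp130), IL-6 uses Il6ra with Il6st, and IL-10 uses Il10ra with Il10rb, all with STAT3 among their transducers. In regulatory T cells, interferon gamma and IL-12 are known to bring on Th1 features, while IL-10 and IL-27 are known to sustain suppressive function.

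No receptor passed the test between KO and Het cells. By limma 0 of 16 tested probe sets had an adjusted p under 0.05, where 1.78% of all 29507 tested probe sets did, and 7 had an unadjusted p under 0.05, where 9.24% of all were that low and higher in KO. All 7 were higher in KO: Il12rb1, both probe sets of Il18rap, Ifngr1, both of Ifngr2, and Il27ra. On these 7 (43.8% of the 16) every KO array lay above every Het array, which held for 11.3% of all tested probe sets, and on 0 of the 16 did every KO array lie below, which held for 14.9%. The median log2 difference, KO minus Het, was 0.35 over the 16, with 13 positive, against -0.03 over all tested probe sets, 42.8% of which were positive. The 16 exceeded the filter (a log2 value above 4 on at least 3 arrays) on all 6 arrays, and the Il12rb2 probe set and 1 of 4 Il6st probe sets did not pass it.

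**Figure D1:**
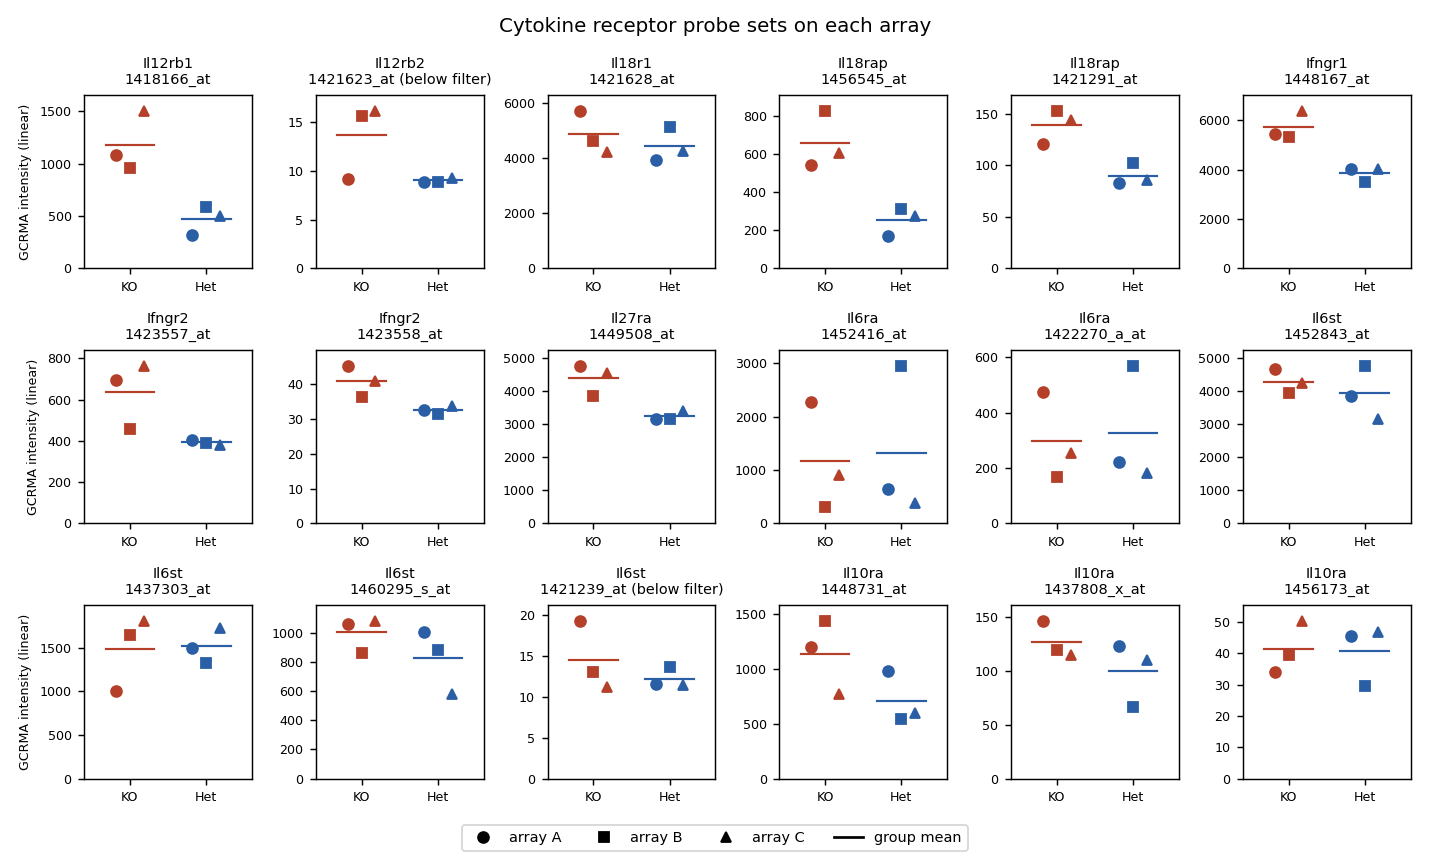
GCRMA intensity (linear scale, each axis from 0) of the 18 receptor probe sets on the KO arrays (red, left) and the Het arrays (blue, right), with a symbol for each array letter and a line at the group mean. Il12rb1, Il18rap, Ifngr1, Ifngr2 and Il27ra have every KO point above every Het point, and Il6ra is high on KO A and Het B.

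The arrays were checked against their labels first. Dicer1 read 1029, 1053 and 1187 on KO A, B and C, against 1203, 1077 and 1059 on Het A, B and C, and its other probe set 897, 976 and 709 in KO, against 1218, 1120 and 1345 in Het. Neither passed the test (limma, log2 difference -0.03 and -0.52, adjusted p = 0.891 and 0.145), and the place of these probes relative to the deleted exons is unknown, so they do not check the genotype labels. The markers fixed for the sorted cells (Cd3d, Cd3e, Cd3g, Cd4, Cd5, Foxp3, Il2ra and Ikzf2) were all above the filter, with a summed intensity of 122208 to 127737 in KO and 135052 to 144579 in Het, most of it from the Cd3 genes and Ikzf2. Foxp3 read 5453, 9417 and 5420 on KO A, B and C, against 9960, 8945 and 9769 on Het A, B and C, so it was low on KO A and KO C only. Il2ra read 5860, 10148 and 5262 in KO, against 4538, 4218 and 4062 in Het. Neither passed the test (limma, adjusted p = 0.285 and 0.244). Median intensities were 58.1 to 61.5 per array. In 4 of the 5 marker lists of other cells the sum was highest on the B array of each group: the sum of 4 measured of 6 B cell markers was 1881 to 5015 in KO and 1040 to 2449 in Het, of 2 CD8 markers 636 to 4415 in KO and 651 to 2257 in Het, of 3 of 5 NK markers 141 to 1731 in KO and 126 to 620 in Het, and of 4 of 7 myeloid markers 522 to 1878 in KO and 300 to 612 in Het. The sum of 3 plasma cell markers (Sdc1, Jchain and Xbp1), most of it Xbp1, was 13049 to 18259 in KO and 7495 to 7946 in Het, and lowest of the Het arrays on Het B. Jchain, the joining chain of secreted antibodies, read 389, 3197 and 2623 on KO A, B and C, against 11.5, 163 and 13.6 on Het A, B and C (limma, adjusted p = 0.101). Higher on every KO array than on any Het array were also Cd22, at 1063, 2980 and 1312 in KO, against 534, 840 and 534 in Het, and the myeloid gene Cd68, at 84.1, 231 and 186 in KO, against 37.7, 28.4 and 64.0 in Het (limma, adjusted p = 0.173 and 0.113). Xbp1 rose (limma, log2 0.89, adjusted p = 0.0270). Sdc1, the remaining plasma cell marker, went the other way, at 72.2 to 72.6 in KO and 74.9 to 80.6 in Het (limma, log2 -0.09, adjusted p = 0.565). No value in the file is 0, and Pax5, Ncr1, Cd14, Itgam, Fcer1g and Tnfrsf17 did not pass the filter. Of these, Fcer1g read 164 on KO B, against 7.69 to 8.52 on every other array, and it is not part of the myeloid sum. The part of other cells in the receptor values was not tested, and in sorted bulk samples fewer cells with a transcript and less of it per cell cannot be told apart.

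Among the IL-12 receptor chains, Il12rb1, the chain shared by the IL-12 and IL-23 receptors, read 1079, 959 and 1508 on KO A, B and C, against 321, 590 and 498 on Het A, B and C. The groups did not overlap, and the lowest KO array (B) stood well clear of the highest Het array (B). The mean was 1182 ± 289 in KO and 470 ± 137 in Het (SD, n = 3 each), 2.55-fold higher in KO (log2 1.35 ± 0.28, SE, 95% confidence interval 0.65 to 2.05), and 1.96% of tested probe sets had a larger difference. It did not pass (limma, adjusted p = 0.0806). Il12rb2, the signalling chain of the IL-12 receptor and a known mark of Th1 cells, read 9.11, 15.6 and 16.2 on the KO arrays, against 8.89, 8.87 and 9.24 on the Het arrays. KO B and KO C were above the rest and KO A lay among the Het arrays. At these intensities GCRMA values lie near the floor that background subtraction leaves, the probe set was not tested in the main comparison, and without the filter it gave log2 0.55 ± 0.24 (SE; limma, adjusted p = 0.392). Il12rb1 lies at chr8:70808360-70823542 and Il12rb2 at chr6:67285986-67376293 (GRCm38.p6).

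The chains of the IL-18 receptor gave unlike values. Il18r1, the chain that binds IL-18, read 5725, 4632 and 4230 on KO A, B and C, against 3934, 5138 and 4264 on Het A, B and C. Those groups overlap, and the log2 difference was 0.13 ± 0.16 (SE; limma, adjusted p = 0.722) with a 95% confidence interval of -0.27 to 0.52, so a rise above 1.43-fold or a fall below 0.831-fold lies outside it. Il18rap, the accessory chain without which the receptor does not signal, read 541, 830 and 605 on the KO arrays, against 169, 312 and 276 on the Het arrays, with every KO array above every Het array. It was 2.65-fold higher in KO (log2 1.41 ± 0.28, SE, 95% confidence interval 0.71 to 2.10; limma, adjusted p = 0.0746). Its other probe set read 121, 153 and 144 in KO, against 82.9, 102 and 85.3 in Het, in the same order over the 6 arrays, with a smaller log2 difference of 0.63 ± 0.13 (adjusted p = 0.0820). When each gene was represented by the mean of its probe sets, an alternative under which 3.8% of genes passed, Il18rap was the 1 receptor gene of 9 past the threshold (log2 1.02 ± 0.19; limma, adjusted p = 0.0497). Whether the difference of Il18rap exceeds that of Il18r1 was not tested.

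Il18r1 (chr1:40465552-40500854) and Il18rap (chr1:40515362-40551707) are neighbours on chromosome 1. The 250 bases before the first RefSeq start of each are shown because the chains of 1 receptor, side by side on the chromosome, gave unlike values. These sequences are credited to RefSeq (GRCm38.p6, plus strand, chr1:40465302-40465551 and chr1:40515112-40515361). They were searched on both strands for the interferon-activated GAS letters TTCNNNGAA, the T-box letters AGGTGTGA and the GC box GGGCGG, and neither window holds any of these. Capitals mark a match, so there are none here.
Il18r1: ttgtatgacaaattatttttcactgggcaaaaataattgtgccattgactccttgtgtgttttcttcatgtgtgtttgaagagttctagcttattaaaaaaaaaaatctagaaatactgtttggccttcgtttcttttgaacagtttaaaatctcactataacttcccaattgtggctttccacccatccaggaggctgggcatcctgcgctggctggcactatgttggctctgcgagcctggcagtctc
Il18rap: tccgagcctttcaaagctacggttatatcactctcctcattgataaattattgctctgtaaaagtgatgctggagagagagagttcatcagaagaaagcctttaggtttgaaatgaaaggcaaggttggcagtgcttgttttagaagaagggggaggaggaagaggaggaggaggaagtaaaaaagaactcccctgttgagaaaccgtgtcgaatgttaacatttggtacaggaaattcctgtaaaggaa

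Both chains of the interferon gamma receptor were higher on every KO array than on any Het array. Ifngr1, the chain that binds interferon gamma, read 5451, 5299 and 6387 on KO A, B and C, against 4039, 3511 and 4007 on Het A, B and C. The arrays of each group lay close together, and the mean was 5712 ± 589 in KO and 3852 ± 296 in Het (SD, n = 3 each), a 1.48-fold difference (log2 0.57 ± 0.11, SE, 95% confidence interval 0.29 to 0.84; limma, adjusted p = 0.0720). Its adjusted p was the smallest of the 16. Ifngr2, the signalling chain, whose level is known to set how well T cells respond to interferon gamma, read 697, 456 and 765 on the KO arrays, against 406, 392 and 382 on the Het arrays. KO B was the lowest KO array, not far above the Het arrays, which were nearly level. The log2 difference was 0.67 ± 0.20 (95% confidence interval 0.16 to 1.17; limma, adjusted p = 0.168). The other Ifngr2 probe set read 45.2, 36.1 and 40.7 in KO, against 32.6, 31.4 and 33.7 in Het, also with KO B lowest among the KO arrays (log2 0.31 ± 0.11, adjusted p = 0.196).

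Ifngr1 lies at chr10:19591949-19610229 and Ifngr2 at chr16:91547059-91564007. Their windows are shown because both chains of this receptor lay higher in KO. The 250 bases before the RefSeq starts (GRCm38.p6, plus strand, chr10:19591699-19591948 and chr16:91546809-91547058) hold GC boxes in capitals, 2 in Ifngr1 and 4 in Ifngr2, the last 2 of which share a base, and no match to the other motifs.
Ifngr1: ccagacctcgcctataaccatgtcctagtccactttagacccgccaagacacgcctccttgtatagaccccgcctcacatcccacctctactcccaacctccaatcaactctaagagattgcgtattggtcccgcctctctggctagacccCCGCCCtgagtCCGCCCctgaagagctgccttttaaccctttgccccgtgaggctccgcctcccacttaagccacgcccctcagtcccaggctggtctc
Ifngr2: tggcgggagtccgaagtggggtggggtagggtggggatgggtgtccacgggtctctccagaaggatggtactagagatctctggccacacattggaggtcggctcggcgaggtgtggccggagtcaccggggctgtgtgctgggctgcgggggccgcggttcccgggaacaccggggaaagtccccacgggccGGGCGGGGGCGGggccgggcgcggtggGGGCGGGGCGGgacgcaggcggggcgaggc
Of 32851 promoter windows of this length, 32.7% hold a GC box, 7.02% the GAS letters and 1.12% the T-box letters. The table holds windows for 7 of the 10 receptor genes. A GC box is in 3 of them (Ifngr1, Ifngr2 and Il6st) and the GAS letters in 2, at Il12rb2 and at a later start of Il18r1. Those 2 genes are the one below the filter and one whose groups overlap. The shares count windows while the receptor counts are of genes, and Il18r1 has several windows, so they are not like for like.

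Il27ra, the chain that binds IL-27, read 4780, 3860 and 4572 on KO A, B and C, against 3171, 3173 and 3413 on Het A, B and C. Every KO array was above the Het arrays, and KO B was again the lowest of the KO arrays. The mean was 4404 ± 482 in KO and 3252 ± 139 in Het (SD, n = 3 each), 1.35-fold higher in KO (log2 0.43 ± 0.11, SE, 95% confidence interval 0.17 to 0.70; limma, adjusted p = 0.112). The gene lies at chr8:84030286-84042600, on the chromosome of Il12rb1.

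Leaving out both B arrays, on which the B cell, CD8, NK and myeloid sums were highest, gave log2 differences of 1.67 for Il12rb1, 1.41 and 0.65 for Il18rap, 0.55 for Ifngr1, 0.89 and 0.37 for Ifngr2 and 0.51 for Il27ra. All 7 remained positive, those of Ifngr1 and the first Il18rap probe set were slightly smaller than on 6 arrays and the other 5 larger, and their adjusted p lay between 0.146 and 0.230 (limma, 2 arrays per group). Leaving out 1 array at a time kept these differences positive too. In both cases the sign was fixed beforehand, since every KO array lay above every Het array on these 7. The kept sign is therefore no support. Without the B arrays Jchain still read 389 and 2623 in KO, against 11.5 and 13.6 in Het. On the A and C arrays the B cell sum was 1881 and 2043 in KO, against 1040 and 1074 in Het. The myeloid sum was 522 and 849 in KO, against 300 and 369 in Het, and the NK sum 146 and 141, against 126 and 138. The CD8 sum overlapped, at 670 and 636 in KO, against 909 and 651 in Het. The part of other cells in these receptor differences was not tested.

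**Figure D2:**
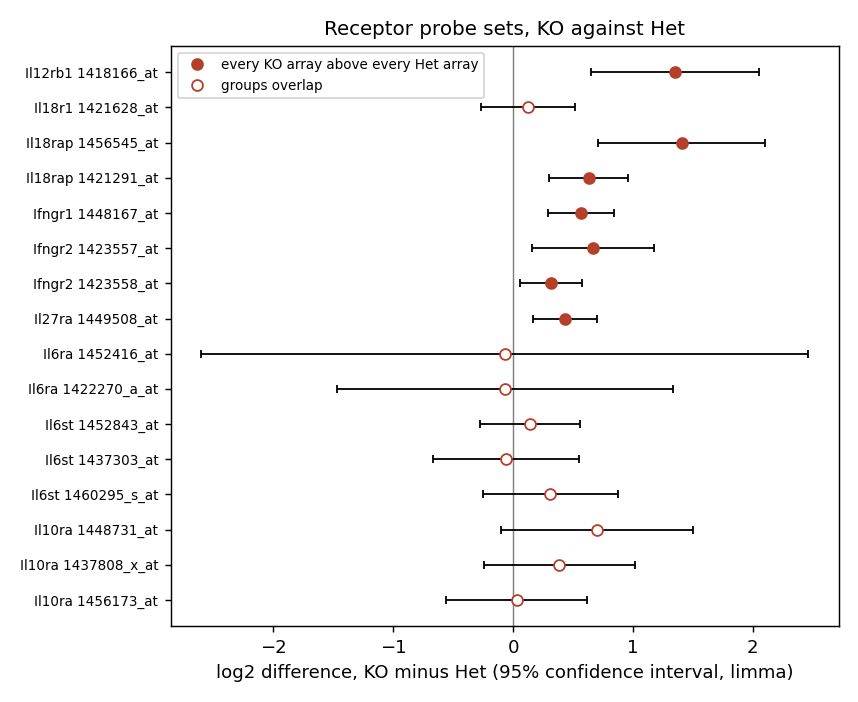
Log2 difference, KO minus Het, of the 16 tested receptor probe sets, with 95% confidence intervals from limma. Filled points mark the 7 probe sets on which every KO array lay above every Het array. The intervals of those 7 lie above 0, and the longest interval, from -2.60 to 2.46, is that of an Il6ra probe set.

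Il6st, the signal chain shared by the IL-6 and IL-27 receptors, overlapped between the groups on all 4 of its probe sets. The probe set that stands for it read 4686, 3943 and 4241 on KO A, B and C, against 3854, 4775 and 3170 on Het A, B and C, with the highest and the lowest array both in Het. Its log2 difference was 0.14 ± 0.17 (SE, 95% confidence interval -0.28 to 0.56; limma, adjusted p = 0.704). Another read 1009, 1642 and 1809 in KO, against 1495, 1326 and 1721 in Het (log2 -0.06, adjusted p = 0.914), and ran against the first over the 6 arrays (Pearson's r = -0.64). The remaining tested one read 1061, 865 and 1084 in KO, against 1009, 885 and 583 in Het (log2 0.31, adjusted p = 0.525). The probe set below the filter read 11.3 to 19.3 in KO and 11.5 to 13.7 in Het. Il6st lies at chr13:112464070-112506860.

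Il6ra, the chain that binds IL-6 and is known to be lost from T cells after activation, differed more between arrays of the same group than between the groups. It read 2280, 306 and 908 on KO A, B and C, against 640, 2954 and 388 on Het A, B and C. KO A and Het B were high, KO B and Het C low, and the highest array was 7.45 times the lowest within KO and 7.62 times within Het. Of all tested probe sets 99.3% had a smaller SD within groups on the log2 scale. The log2 difference was -0.07 ± 1.02 (SE, 95% confidence interval -2.60 to 2.46; limma, adjusted p = 0.979), an interval that holds both a 5.51-fold rise and a fall to 0.165-fold. The second probe set put the arrays in the same order, at 474, 166 and 255 in KO, against 221, 569 and 184 in Het, with Pearson's r = 0.99 over 6 arrays of the same RNA. Il6ra lies at chr3:89869324-89913196.

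The Il6ra difference turned positive without Het B (log2 0.79), without KO B (0.67) and without both B arrays (1.53; limma, adjusted p = 0.304). Without KO A it was -0.77. The 2 arrays with high Il6ra were unlike in the markers of other cells: Het B had the highest B cell and CD8 sums of its group, while KO A had a CD8 sum of 670 and a B cell sum of 1881, which was the lowest of the KO arrays.

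Il10ra, the chain that binds IL-10, read 1201, 1438 and 774 on KO A, B and C, against 978, 539 and 593 on Het A, B and C. KO A and KO B lay above every Het array and KO C did not. The log2 difference was 0.70 ± 0.32 (SE; limma, adjusted p = 0.317), and as a fold over Het the 95% confidence interval ran from 0.934 to 2.82. The other 2 probe sets read 147, 120 and 115 in KO, against 123, 66.8 and 110 in Het (log2 0.39, adjusted p = 0.476), and 34.0, 39.3 and 50.4 in KO, against 45.6, 29.7 and 47.0 in Het (log2 0.03, adjusted p = 0.958). The gene lies at chr9:45253837-45269149. Il10rb, the chain it pairs with, read 4740, 4388 and 4040 in KO, against 3282, 2863 and 2577 in Het, with no overlap (log2 0.60 ± 0.12, adjusted p = 0.0760).

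By the probe set that stands for each gene, Il18rap had the largest difference among the 9 receptor genes tested on 6 arrays, narrowly ahead of Il12rb1, which was ahead with array weights, without KO B (1.49 against 1.23), without both B arrays (1.67 against 1.41) and with averaged probe sets (1.35 against 1.02). The 5 genes whose log2 values followed its pattern most closely over the 6 arrays were Ccdc18, 4930579G24Rik, Atp2a2, Fabp5 and Sowahc, with Pearson's r between 0.995 and 0.998. Their log2 differences were 0.54 to 1.78, and none passed the test (limma, adjusted p between 0.0724 and 0.110). Fabp5, a fatty acid binding protein, read 10043, 13313 and 10733 in KO, against 3176, 5549 and 5498 in Het. In each of these genes KO B was the highest and Het A the lowest array, as in Il18rap. The points share the same 6 arrays, and the genes were picked for the likeness among 13280.

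**Figure D3:**
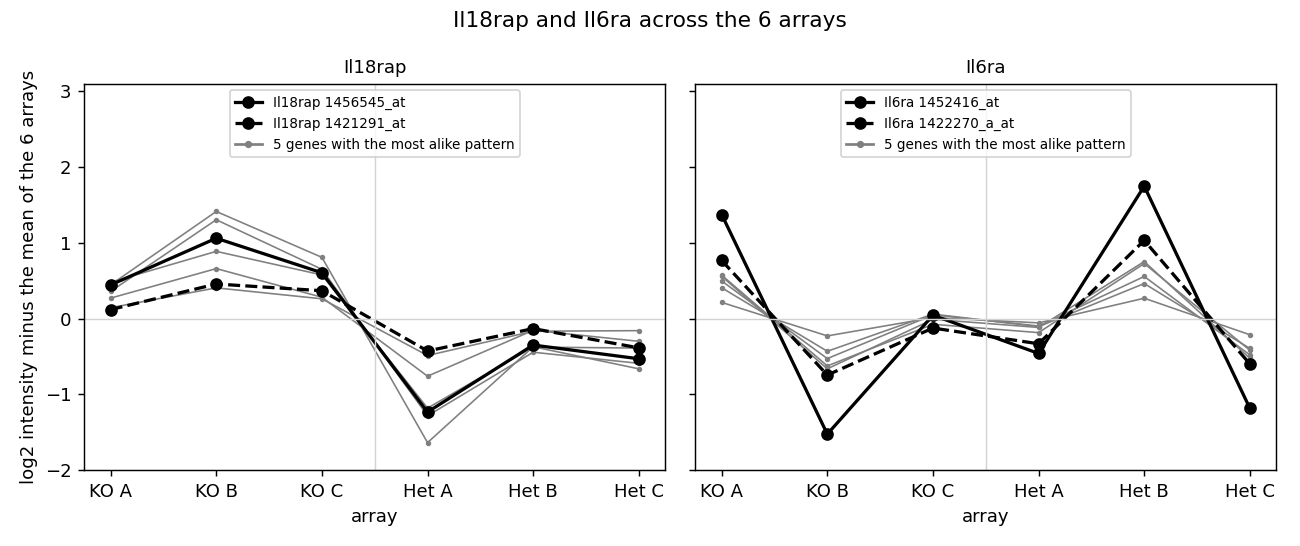
Log2 intensity relative to the mean of the 6 arrays, KO arrays left and Het arrays right, for the probe sets of Il18rap and of Il6ra (black) and for the 5 genes most alike to each (grey). Il18rap is above its mean on all 3 KO arrays, whereas Il6ra is highest on Het B and KO A.

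Other genes of these pathways were counted from lists, 1 probe set per gene, where 1.37% of 13280 genes passed as higher and 0.956% as lower, and 10.7% had an unadjusted p under 0.05 with a higher and 11.6% with a lower value in KO. Of 9 measured ligand genes 2 rose and 0 fell (limma), with a median log2 of 0.75 against -0.03 over all genes. These were Ifng, which gives the ligand of Ifngr1 and Ifngr2 (663, 751 and 1104 on the KO arrays, against 241, 204 and 175 on the Het arrays, adjusted p = 0.0263), and Il10, which gives that of Il10ra (2.98, adjusted p = 0.0462). Ebi3, a subunit of IL-27, read 3698, 2853 and 3551 on the KO arrays, against 1361, 1625 and 2033 on the Het arrays (log2 1.02 ± 0.18, SE; adjusted p = 0.0607), without overlap. Il12a and Il6 did not pass the filter, at 6.87 to 7.06 in KO and 7.14 to 7.68 in Het for Il12a and 4.13 to 4.21 in KO and 4.05 to 4.42 in Het for Il6. Il12b was level at 21.4 on each KO array, against 19.8 to 23.1 in Het.

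Of 8 measured related receptor chains 0 passed by limma (unadjusted, 3 were higher and 1 lower at p under 0.05), with a median log2 of 0.14. Besides Il10rb they include Il21r, the IL-21 receptor (log2 0.35, adjusted p = 0.199), and Ifnar2, a chain of the type I interferon receptor, which read 3162, 3155 and 3112 in KO, against 4091, 4089 and 3791 in Het (log2 -0.34 ± 0.07, adjusted p = 0.0836). Ifnar2 thus lay below every Het array on every KO array. This was the opposite side from both interferon gamma receptor chains, but only 1 of the 3 probe sets of Ifnar2 was read. Its partner Ifnar1 overlapped between the groups (log2 0.31, adjusted p = 0.369). Of 5 measured genes of the IL-1 receptor family, to which the IL-18 receptor chains belong, 1 rose: Il1rl2, a chain of the IL-36 receptor, read 81.7, 108 and 114 in KO, against 38.4, 40.4 and 45.7 in Het (log2 1.28 ± 0.15, adjusted p = 0.0297). Il1r1, which binds IL-1, gave log2 0.94 (adjusted p = 0.234), and the median of the 5 was 0.43.

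Among 11 measured signal transducers 0 passed by limma (unadjusted, 5 were higher and 1 lower at p under 0.05), with a median log2 of 0.28. Gadd45g, a stress-induced activator of p38 signalling that IL-12 and IL-18 are known to induce, read 1878, 1873 and 3478 in KO, against 478, 251 and 589 in Het (log2 2.48 ± 0.40, adjusted p = 0.0532). Stat3, shared by the IL-6, IL-10 and IL-27 receptors, read 7608, 8419 and 9552 in KO, against 5309, 5382 and 5833 in Het, without overlap (log2 0.63 ± 0.11, adjusted p = 0.0587). Jak2 (0.41, adjusted p = 0.225) and Myd88 (0.28, adjusted p = 0.247) also lay higher on every KO array. Stat4, the transducer of IL-12, gave log2 0.00 ± 0.21 with overlapping groups (adjusted p = 0.994), and Jak1, the kinase bound to most of these receptors, gave -0.04 (adjusted p = 0.872). Traf6, an adaptor below MyD88, gave 0.69 (adjusted p = 0.0942), and Mapk14, the p38 kinase, -0.42 (adjusted p = 0.0826), each without overlap.

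Of 10 measured feedback inhibitors 2 rose and 0 fell (limma), with a median log2 of 0.78. Il18bp, which encodes the secreted protein that binds and blocks IL-18, read 290, 334 and 474 on the KO arrays, against 104, 102 and 129 on the Het arrays, 3.23-fold higher in KO (log2 1.69 ± 0.21, SE; adjusted p = 0.0302). Socs3, which binds Il6st and blunts its signal, was the other (log2 1.95, adjusted p = 0.0222). Ptpn6, a phosphatase, lay lower on every KO array (log2 -0.24, adjusted p = 0.166).

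Of 9 measured factors reported downstream of these receptors 3 rose and 0 fell (limma), with a median log2 of 1.21. Irf1, a transcription factor induced by interferon gamma and known to act on Il12rb1, read 8211, 9232 and 11213 in KO, against 3500, 4885 and 4051 in Het, 2.31-fold higher (log2 1.21 ± 0.17, SE; adjusted p = 0.0424). Tbx21 (2.13, adjusted p = 0.0317) and Runx3 (1.24, adjusted p = 0.0232), factors of Th1 cells, were the others. Bcl3, an atypical NF-kappaB inhibitor induced by STAT3, read 3526, 5044 and 6206 in KO, against 1763, 1917 and 2193 in Het (2.46-fold, adjusted p = 0.0571). The 8 genes that passed in these lists (Ifng, Il10, Il1rl2, Il18bp, Socs3, Irf1, Tbx21 and Runx3) had every KO array above every Het array. They therefore had to stay higher in KO whichever array was left out, which is no support. The calls rest on the 6 arrays together. Without KO A the calls of Il1rl2 and Socs3 remained, and without any one of the other 5 arrays, or without both B arrays, 0 of the 8 passed (limma, adjusted p between 0.0584 and 0.175). The lists were drawn up with earlier results of these data known, and the plot of pathway genes shows their members beside the receptors, whose median over 9 genes was 0.57.

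**Figure D4:**
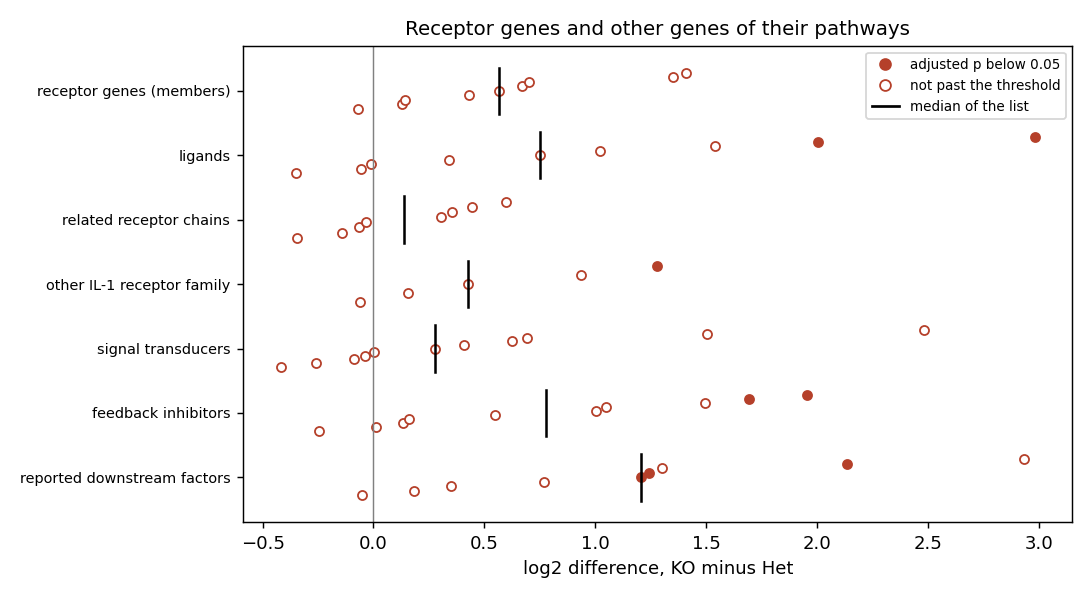
Log2 difference, KO minus Het, of the 9 tested receptor genes and of the measured genes of 6 lists, 1 probe set per gene, with filled points past an adjusted p of 0.05 (limma) and a black line at each median. None of the receptor genes is filled, 3 of the downstream factors are, and the medians run from 0.14 for the related chains to 1.21 for the downstream factors.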

How the data were processed

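Intensities of 45101 probe sets were deposited by the authors after GCRMA normalization, per the labels. GCRMA subtracts a sequence-based background, normalizes arrays to each other and summarises each probe set, so values near its floor understate or distort folds. No version of it is stated. The values are linear, judged from their range, and log2 was taken. Left out were 64 control probe sets and 1 that lacks values on some arrays. Testing was limited to the 29507 whose log2 value exceeded 4 on 3 or more arrays.

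The contrast of KO with Het was fitted across all of these in limma 3.58.1 (R 4.3.3; lmFit and default eBayes, no covariates, two-sided). P-values were adjusted by Benjamini and Hochberg's method over the 29507, and 0.05 was the threshold. A difference is log2 KO minus log2 Het. Where a gene had several probe sets, that with the highest mean stood for it. All receptor probe sets are named. From each list, genes past the threshold are named, with others chosen after their values were seen. The Il18rap pattern genes follow a set rule. The members and lists were chosen with earlier results of these data known. Alternatives were a replicate block, other filters and normalizations, other variance settings, array weights, averaged probe sets and leaving out arrays. The steps were tested on simulated data. The 3 arrays per group limit the precision.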

Additional observations from a re-analysis of the deposited data

How the results depend on the processing

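Over 29507 tested probe sets 525 passed (limma). There were 0 under the replicate block (5365 at an unadjusted p under 0.05), 957 with array weights, 0 without both B arrays (5274 at an unadjusted p under 0.05), and 0 to 176 when 1 array was left out (lowest without KO C, 4227 at an unadjusted p under 0.05; highest without KO A). Other filters and normalizations moved this count by less than 1.5 times. Deviations of same-letter arrays correlated at 0.28 (A), -0.17 (B) and 0.01 (C), so the letters were not taken as pairs, although both B arrays had the highest B cell, CD8, NK and myeloid sums of their group. Receptor probe sets past the threshold stayed at 0 in every alternative run, with a smallest adjusted p of 0.0525. With each gene's probe sets averaged, 504 genes passed, against 309, and 1 receptor gene, Il18rap. Of 222 values of single receptor probe sets under alternatives, 208 kept their direction and 14 reversed, all in 5 probe sets whose groups overlap. Part of this was fixed beforehand. Leaving out arrays cannot reverse a probe set whose groups do not overlap. The replicate block, other filters and other variance settings leave the difference itself unchanged. Il6ra turned to 0.40 and 0.16 with array weights and to 1.53 and 0.79 without both B arrays, and its 2 probe sets ranged from -0.77 to 0.79 and from -0.47 to 0.43 when 1 array was left out. For Il6st these ranges were -0.23 to 0.20 and -0.0036 to 0.29, and its remaining tested probe set gave 0.079 without Het C. Il10ra gave 0.12 without Het B on the probe set with log2 0.39, and Il18r1 to 0.0030 without KO A. The Il10ra probe set with log2 0.03 gave -0.16 without both B arrays and ranged from -0.18 to 0.16. The cause was not tested. Of the 8 pathway genes past the threshold 6 passed without the filter and 0 under the replicate block. Il12rb2 sits near the GCRMA floor, where no fold can be relied on.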

Other observations

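The array pattern of Il6ra was shared by genes that did not pass the KO against Het test either. The 5 closest over the 6 arrays, chosen after the values of Il6ra were seen, were Efcab14, Trim44, Usp1, Wbp11 and Tgs1, with Pearson's r between 0.994 and 0.997. Usp1, a deubiquitinase, read 570, 249 and 364 on KO A, B and C, against 337, 634 and 287 on Het A, B and C. Tgs1, an enzyme that modifies the cap of small RNAs, read 577, 284 and 423 in KO, against 382, 601 and 293 in Het. In all 5 genes Het B was the highest array and KO A the next, and their highest array was 1.41 to 2.67 times their lowest, against 9.65 times for Il6ra.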
